A study of Homo sapiens with 4 samples.

Results

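Genes whose symbol is ZNF followed by a number code mostly for zinc finger proteins, and 160 of them were counted well enough to be described here. A gene was taken when its symbol had this form and its row with the most counts reached at least 400 counts, summed over the 4 libraries. The 160 genes came from 365 ZNF-named genes with a row and from 12153 genes in all. Members were thus chosen by their summed count over all libraries. The set was proposed with earlier results of these data known, so counts over it describe it and are no independent evidence. For 14 genes the minimum was reached through the control group, in that their knockdown counts, doubled, are under 400, and for 1 through the knockdown group. A gene near the minimum could enter so only if its groups differed, and 3 of the 14 fell. ZNF280B, with 396 counts, and ZNF330, with 382, lay just outside the limit, and ZNF668, with 407, and ZNF235, with 408, just inside.

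RNA came from PLC/PRF/5 cells, an established human hepatocellular carcinoma line. The control group had 2 libraries, and the USP22 knockdown group, in which lentiviral interference lowered USP22, had 2. USP22 is a ubiquitin protease of the SAGA coactivator complex, where it takes ubiquitin off histones. Both groups spent 48 h in an incubator with 1% oxygen and 5% carbon dioxide, and every value here is from hypoxic cells. The labels say neither what the control cells received, nor whether the knockdown cells were cloned or pooled, nor whether replicates were separate cultures. The p-values therefore measure the spread between these libraries, which may be technical.

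A C2H2 zinc finger is a short fold in which cysteines and histidines hold a zinc ion, and arrays of such fingers read DNA sequence. Many ZNF proteins also carry a KRAB domain at the amino-terminal end. KRAB binds the corepressor TRIM28, which brings the histone methyltransferase SETDB1, HP1 proteins and the NuRD complex, and this machinery is known for silencing transposable elements. Other ZNF proteins carry a SCAN domain, which pairs such proteins with each other, or neither domain. KRAB zinc finger genes lie in large clusters, many of them on chromosome 19.

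Library totals ranged from 15027209 to 17194929 counts, and the 160 genes took 0.720% to 0.818% of them. The targeted gene USP22 had 2937 and 2573 CPM (counts scaled to the normalized library size, as in edgeR) in control and 360 and 447 CPM in knockdown libraries, with 14.6% left, as its labels have it. All 10 hepatocyte markers had counts in every library, with a summed count of 177764 to 468376. APOB alone gave 142247 of the lowest sum and 416336 of the highest, so the sum says little about the other markers. Of these 10 markers 5 rose in the knockdown and 0 fell by edgeR, with 6 higher and 1 lower at an unadjusted p under 0.05. Of 10 markers of leukocytes, endothelium and fibroblasts 6 have a row, with 595 and 633 counts in sum in control and 780 and 711 in knockdown libraries. Of these PECAM1, an endothelial adhesion molecule, rose. COL1A2 had 1 and 53 counts in control and 0 in both knockdown libraries. VWF had 7 and 9 counts against 0 and 2, and neither of these low rows was tested. In such bulk RNA, fewer cells of a kind and less RNA per cell cannot be told apart, and the part of the marker changes in the values below was not tested.

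More of the 160 genes fell than rose after USP22 knockdown. By edgeR's quasi-likelihood test over all 12337 rows tested, at an adjusted p under 0.05, 21 genes fell (13.1%), 7 rose (4.38%) while 132 stayed short of the threshold. Over all tested rows 18.7% were called, with 10.2% that fell and 8.49% that rose. The median log2 fold change was −0.24 for the ZNF-named genes and 0.00 for all rows, and 108 of the 160 values were below 0. Both knockdown libraries lay below both control libraries for 70 genes and above for 26, so that 96 of 160 did not overlap. Over all rows 30.3% lay below and 29.3% above, 59.6% together. Against a fold of 1.5 (glmTreat) 6 of the 160 were called, all lower, and 6.78% of all rows. On the log2 scale relative to the control mean, the median gene stood at −0.20 in the first knockdown library and −0.24 in the second. Without control replicate 2 the median was −0.14, and without either control library 12 genes fell. Without knockdown replicate 1 the number that rose was 14. Genes with at least 1000 counts, 96 of the 160, had a median of −0.14, with 14 lower and 7 higher.

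**Figure D1:**
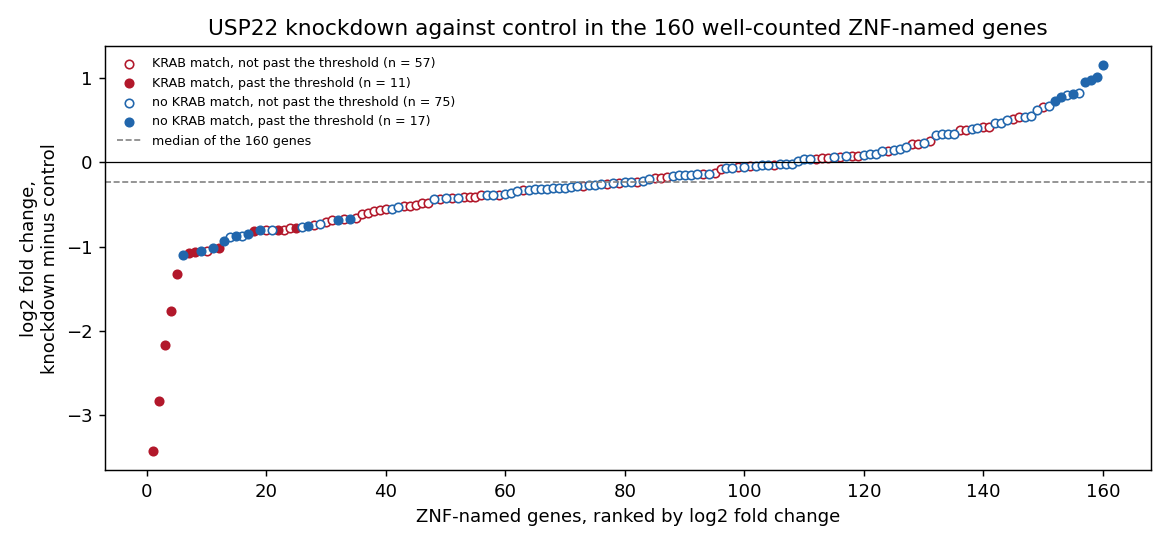
The log2 fold change of knockdown minus control (vertical axis) of the 160 genes in rank order (horizontal axis), red with and blue without a match to the KRAB domain, filled where the adjusted p is under 0.05. The lower end holds KRAB genes down to −3.43 and the upper end genes without KRAB up to 1.15.

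The domains of each protein were read from its GENCODE coding sequence, translated by a script. A KRAB match was found in 68 genes, a SCAN match without KRAB in 9 and neither in 83. Genes called without KRAB here are those without such a match. The pattern can miss a domain, so no match does not show that KRAB is absent. Among the 68 KRAB genes 11 fell (16.2%) and 0 rose. Their median log2 fold change was −0.41. The 11 include ZNF528, ZNF404 and ZNF737, the 3 called genes that reached the minimum count through the control group. ZNF132, ZNF14, ZNF141, ZNF563, ZNF720 and ZNF841 are KRAB genes that entered so without a call. ZNF444, the 1 gene that entered through the knockdown group, has no KRAB match. The rule for members thus bears on this count and median. Among the 92 genes without a KRAB match 10 fell (10.9%) and 7 rose (7.61%), and their median was −0.15. For the count of 0, ZNF792 alone of the KRAB genes was higher at an unadjusted p under 0.05 (0.52 ± 0.21 SE, adjusted p = 0.104). DESeq2 and limma-voom also called 0 of the KRAB genes higher, while 2 were called higher without knockdown replicate 1 and 2 with the replicate number as a block. The block called 18 KRAB genes lower, and 12 of the 160 higher and 34 lower. The number of KRAB genes that fell was 7 without control replicate 1 and 7 without knockdown replicate 2. Of the genes without KRAB 5 fell without control replicate 1, 4 fell without control replicate 2, and 12 rose without knockdown replicate 1. The difference between the classes was not tested. By library, the KRAB median relative to the control mean was −0.25 and −0.48 in the knockdown, and that of the genes without KRAB −0.17 and −0.07.

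**Figure D2:**
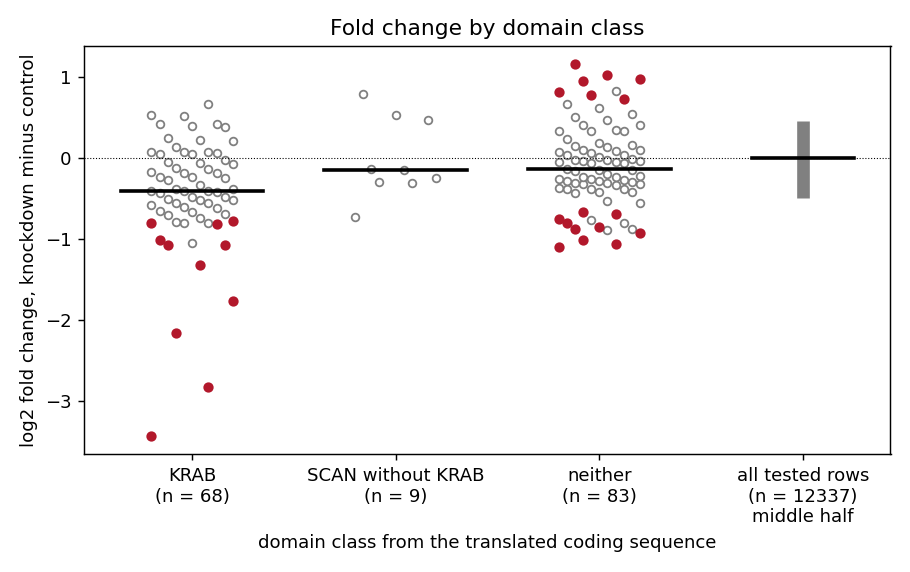
The log2 fold change of knockdown minus control (vertical axis) by domain class (horizontal axis), each point a gene, red where past the threshold, with the class median as a black line. The grey bar spans the 25th to the 75th percentile of all tested rows, from −0.50 to 0.46. The medians are −0.41 for KRAB genes, −0.15 for SCAN genes and −0.14 for genes with neither.

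The largest decreases that passed were those of ZNF528, ZNF404 and ZNF470, and the largest increases those of ZNF362, ZNF277 and ZNF581. Their promoters are shown as the ends of the range of change. Each run is the 250 bases before the RefSeq start site (GRCh38.p14), 5′ to 3′ on the strand of the gene. The windows are chr19:52397599-52397848 (+ strand), chr19:43883965-43884214 (- strand) and chr19:56567218-56567467 (+ strand), then chr1:33256242-33256491 (+ strand), chr7:112206445-112206694 (+ strand) and chr19:55643399-55643648 (+ strand). Capitals mark the letters CCAAT, the box bound by NF-Y, CCGGAAG, an ETS-type site, and TTTCCCGC, an E2F-type site, on either strand, along with ACGTG, the core of the hypoxia response element.
ZNF528: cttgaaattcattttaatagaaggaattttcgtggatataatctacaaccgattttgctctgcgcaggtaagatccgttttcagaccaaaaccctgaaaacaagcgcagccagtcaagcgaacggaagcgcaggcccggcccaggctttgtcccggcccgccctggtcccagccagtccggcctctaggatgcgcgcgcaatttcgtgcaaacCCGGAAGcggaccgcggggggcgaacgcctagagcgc
ZNF404: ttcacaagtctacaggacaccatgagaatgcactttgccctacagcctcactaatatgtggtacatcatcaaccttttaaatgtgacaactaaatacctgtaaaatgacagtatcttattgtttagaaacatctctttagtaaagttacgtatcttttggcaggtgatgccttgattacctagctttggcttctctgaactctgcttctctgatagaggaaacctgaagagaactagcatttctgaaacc
ZNF470: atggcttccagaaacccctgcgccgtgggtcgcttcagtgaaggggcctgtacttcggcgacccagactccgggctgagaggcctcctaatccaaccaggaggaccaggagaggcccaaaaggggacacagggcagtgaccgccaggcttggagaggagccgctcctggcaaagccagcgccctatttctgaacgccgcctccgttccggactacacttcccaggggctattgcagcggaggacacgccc
ZNF362: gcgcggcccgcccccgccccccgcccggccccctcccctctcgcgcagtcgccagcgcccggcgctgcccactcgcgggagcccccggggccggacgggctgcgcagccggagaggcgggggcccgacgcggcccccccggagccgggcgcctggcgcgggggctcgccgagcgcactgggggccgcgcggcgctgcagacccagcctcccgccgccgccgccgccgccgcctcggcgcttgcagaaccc
ZNF277: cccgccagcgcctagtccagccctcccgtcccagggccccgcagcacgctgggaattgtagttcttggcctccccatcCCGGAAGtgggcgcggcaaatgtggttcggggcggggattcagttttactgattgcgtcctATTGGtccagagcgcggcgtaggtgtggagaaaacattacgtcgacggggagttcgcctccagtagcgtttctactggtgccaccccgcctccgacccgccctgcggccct
ZNF581: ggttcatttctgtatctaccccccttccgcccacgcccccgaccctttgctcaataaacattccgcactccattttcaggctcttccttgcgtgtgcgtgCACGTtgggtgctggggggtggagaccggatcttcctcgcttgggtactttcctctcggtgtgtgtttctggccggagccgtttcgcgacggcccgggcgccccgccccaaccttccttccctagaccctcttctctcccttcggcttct

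ZNF404, ZNF470 and ZNF362 held no match, and ZNF528 held 1 ETS-type site. ZNF277 held 1 CCAAT box and 1 ETS-type site, and ZNF581 held the hypoxia response core. A window was given for 141 of the 160 genes. CCAAT stood in 60.9% of 64 KRAB promoters and 36.4% of 77 without KRAB, against 34.9% of 9304 promoters of genes in the count table and 33.0% of all 27305 RefSeq promoters of the same length. It stood in 4 of 18 promoters of genes that fell and 2 of 6 of genes that rose. CCGGAAG stood in 32.6% of the 141, against 15.1% for genes in the table and 8.8% of all promoters, with 6 of 18 among genes that fell and 2 of 6 among those that rose. ACGTG stood in 9.38% of KRAB promoters, 25.97% of those without KRAB, 22.7% for genes in the table and 18.7% of all promoters, and in 3 of the 18 genes that fell. A match describes the letters and shows no bound factor.

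The largest decreases were in KRAB zinc finger genes. ZNF528 had 13.4 and 11.3 CPM in control and 1.12 and 1.16 CPM in knockdown libraries, a 10.7-fold decrease (log2 fold change −3.43 ± 0.37 SE, adjusted p = 5.91e-05). The control libraries were far above the knockdown libraries, where few counts remained. ZNF404 had 28.3 and 28.9 CPM in control and 3.97 and 4.08 CPM in knockdown libraries (−2.83 ± 0.27, adjusted p = 2.27e-05). ZNF470 had 103 and 107 CPM in control and 27.9 and 18.98 CPM in knockdown libraries (−2.16 ± 0.22, adjusted p = 3.84e-05). In both genes the control libraries lay close together and well above the knockdown. ZNF528 and ZNF404 reached the minimum count through the control group, with 396 and 916 counts there against 37 and 130 in the knockdown. ZNF879 had 23.8 and 23.6 CPM against 7.54 and 6.41 CPM (−1.76 ± 0.26, adjusted p = 0.000579). These 4 calls held in each of 12 alternatives and at an adjusted p under 0.01. The 4 proteins have 15, 14, 17 and 13 fingers in the same order.

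Further KRAB genes fell by smaller factors. ZNF737 had 11.7 and 11.9 CPM in control and 6.21 and 3.20 CPM in knockdown libraries (−1.33 ± 0.35, adjusted p = 0.0192), a call that needed knockdown replicate 2. It too reached the minimum through the control group, with 377 counts against 149. ZNF264 had 68.8 and 67.7 CPM against 35.04 and 29.9 CPM (−1.07 ± 0.20, adjusted p = 0.00235). ZNF350, also called ZBRK1, a repressor that binds BRCA1, had 14.5 and 12.7 CPM against 6.21 and 6.76 CPM (−1.07 ± 0.29, adjusted p = 0.0200). The groups did not overlap in any of these genes. ZNF416 (−1.01), ZNF333 (−0.81), ZNF765 (−0.80) and ZNF614 (−0.77) completed the 11 KRAB genes that fell, with adjusted p-values of 0.0229 to 0.0342. ZNF350 did not pass without control replicate 1, nor did ZNF333, ZNF765 and ZNF614. Without control replicate 2 ZNF416, ZNF765 and ZNF614 missed the threshold, without knockdown replicate 1 ZNF416 and ZNF614, and without knockdown replicate 2 ZNF333, ZNF765 and ZNF614. ZNF737 shares 10.9% of its transcript, counted in runs of 50 bases, with ZNF66 and other genes, and ZNF765 shares 10.2%, so both values are uncertain.

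Genes without a KRAB match that fell included ZNF883, ZNF329 and ZNF395. ZNF883 had 14.8 and 14.6 CPM in control and 7.34 and 6.41 CPM in knockdown libraries (−1.10 ± 0.28, adjusted p = 0.0155). ZNF329 had 45.9 and 46.5 CPM against 23.3 and 21.1 CPM (−1.06 ± 0.21, adjusted p = 0.00375). Both proteins are arrays of fingers, 13 in ZNF883 and 12 in ZNF329. ZNF646, whose protein has 31 fingers, had 69.5 and 72.7 CPM against 43.5 and 45.9 CPM (−0.67 ± 0.19, adjusted p = 0.0238). It overlaps ZNF668, and it missed the threshold without either control library and without knockdown replicate 1. ZNF852 (−0.88), ZNF230 (−0.85), ZNF71 (−0.76) and ZNF134 (−0.69) fell as well, with adjusted p-values of 0.0230 to 0.0478. These 4 missed the threshold without control replicate 2 and without knockdown replicate 1, and ZNF230, ZNF71 and ZNF134 also without control replicate 1. Without knockdown replicate 1 the log2 fold change of ZNF71 was −0.43, and its knockdown libraries stood apart at 31.5 and 49.1 CPM. ZNF852 shares 13.3% of its runs of 50 bases with ZKSCAN7 and other genes, so its value is uncertain. A looser KRAB pattern, which took in ZNF230, gave 76 genes, with 12 that fell and 0 that rose.

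**Figure D3:**
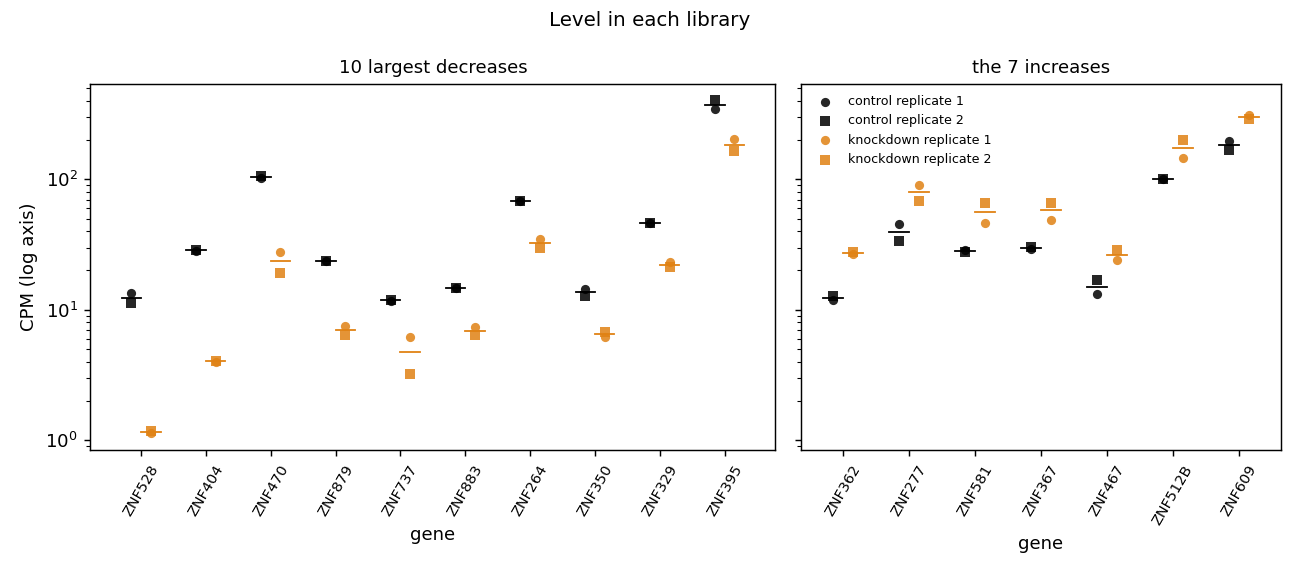
CPM on a log axis (vertical) in each library for the 10 genes with the largest decreases and the 7 that rose (horizontal), black for control and orange for knockdown, circles for replicate 1 and squares for replicate 2, with lines at the group means. In none of the 17 genes do the groups overlap.

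Of 3 genes linked to hypoxia 2 fell in the knockdown, where 10.2% of all tested rows fell. The list was drawn up with earlier results of these data known, so the count is no independent evidence. The list held ZNF395, a transcription factor known to be induced at low oxygen, ZNF292 and ZNF654. ZNF395 had 344 and 404 CPM in control and 205 and 165 CPM in knockdown libraries (−1.02 ± 0.17, adjusted p = 0.00146), and its call held in each of 12 alternatives. Its transcript shares 41.7% of its runs of 50 bases with transcripts of FBXO16 and other genes, so its value is uncertain. None of the alternatives dealt with shared sequence. ZNF654 had 28.6 and 27.5 CPM against 19.4 and 10.1 CPM (−0.93 ± 0.29, adjusted p = 0.0424). Its knockdown libraries stood apart, and it missed the threshold without either control library. Without knockdown replicate 2 its value was −0.52 and did not pass, and without knockdown replicate 1 it was −1.44. ZNF292, whose protein has 15 fingers, had 324 and 203 CPM against 194 and 91.8 CPM (−0.88 ± 0.29) and did not pass (adjusted p = 0.0513). The median of the 3 was −0.93. Both knockdown libraries lay below both control libraries in all 3, as in 30.3% of all rows. In ZNF292 the nearest libraries were 194 and 203 CPM.

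The 7 genes that rose all lack a KRAB match. ZNF362 had 11.8 and 12.7 CPM in control and 26.6 and 27.8 CPM in knockdown libraries, a 2.22-fold increase (1.15 ± 0.24, adjusted p = 0.00487). ZNF277 had 45.5 and 33.5 CPM against 91.1 and 68.6 CPM (1.02 ± 0.22, adjusted p = 0.00612). ZNF581 had 28.9 and 28.0 CPM against 46.0 and 65.7 CPM (0.98 ± 0.22, adjusted p = 0.00827). In these 3 genes the knockdown libraries were above the control libraries without overlap. ZNF367, a gene tied to dividing cells, had 29.4 and 30.4 CPM against 49.1 and 66.4 CPM (0.95 ± 0.21, adjusted p = 0.00761), and was the member of a list of 2 spindle and cell cycle genes that could be tested. ZNF467 had 13.3 and 16.8 CPM against 24.0 and 28.9 CPM (0.82 ± 0.25, adjusted p = 0.0354). ZNF467 missed the threshold without control replicate 1 and without knockdown replicate 2.

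ZNF512B and ZNF609, the remaining genes that rose, have 7 fingers and 1 finger. ZNF512B, which binds the NuRD complex, had 101 CPM in each control library and 146 and 199.97 CPM in knockdown libraries (0.77 ± 0.19, adjusted p = 0.0112). It did not pass when knockdown replicate 2 was left out. ZNF609, whose protein works with the cohesin loader, had 196 and 169 CPM against 312 and 293 CPM (0.73 ± 0.16, adjusted p = 0.00736), but missed the threshold without control replicate 2. Each of the 7 genes that rose overlaps another annotated gene, pseudogenes included, as do 85 of the 160 and 9 of the 21 that fell. Overlap was taken over whole loci, introns included, and overlap of exons was not measured. The library kit does not mark strand, so reads from any exons that 2 genes share cannot be told apart. Among the 75 genes that overlap none, a subset chosen after seeing the data, 12 fell and 0 rose. Over all tested rows 10.2% fell and 8.49% rose. Whether overlap bears on the calls was not tested.

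A list of partners of corepressor complexes holds 7 of the 160 genes. Of these 1 rose, ZNF512B, and 1 fell, ZNF518B, which binds the methyltransferase G9a. ZNF518B had 78.2 and 79.3 CPM in control and 43.0 and 47.0 CPM in knockdown libraries (−0.81 ± 0.18, adjusted p = 0.00854), but not without control replicate 2. The median of the 7 was −0.24. Of the 10 ZNF-named genes of the list that were tested, with or without the minimum count, 2 rose and 1 fell. ZNF592 had 348 and 319 CPM against 256 and 242 CPM (−0.42 ± 0.16) and did not pass (adjusted p = 0.0808), although the groups did not overlap. In edgeR ZNF592 passed with a filter of 5 CPM in 2 libraries (adjusted p = 0.0494). It also passed with the replicate number as a block (adjusted p = 0.0113), but in no other alternative. ZNF217, a gene amplified in several cancers, had 120.02 and 139 CPM against 126 and 128 CPM (−0.03 ± 0.17, adjusted p = 0.918).

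Genes with roles at RNA, ribosomes and promoters did not pass. Of 6 members that act on RNA or ribosomes 0 were called by edgeR, with 1 higher at an unadjusted p under 0.05, and the median was 0.09. ZNF598, the ubiquitin ligase that senses collided ribosomes, had 323 and 291 CPM in control and 216 and 289 CPM in knockdown libraries (−0.28 ± 0.18, adjusted p = 0.302). ZNF622, which works in maturation of the large ribosomal subunit, had 74.8 and 61.3 CPM against 70.9 and 78.6 CPM (0.14 ± 0.19, adjusted p = 0.679). Of 4 promoter-binding activators 0 were called, with 0 at an unadjusted p under 0.05 and a median of 0.17. In this list ZNF335 had a log2 fold change of 0.15 (adjusted p = 0.609) and ZNF148 of 0.18 (adjusted p = 0.537). ZNF445, a KRAB protein that guards imprinted genes and the member of the retroelement list among the 160, had 175 and 168 CPM against 223 and 155 CPM (0.14 ± 0.19, adjusted p = 0.670).

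Of the 5 genes with the most counts 1 fell, ZNF395. ZNF768 had 299 and 343 CPM in control and 335 and 349.8 CPM in knockdown libraries (0.09 ± 0.16, adjusted p = 0.743), and the groups overlapped. ZNF318 had 259 and 288 CPM against 243 and 222 CPM (−0.23 ± 0.16, adjusted p = 0.345). ZNF592 and ZNF598 complete the 5. Per kilobase of transcript, ZNF768 was also the highest in control cells, at 139 RPKM. The 160 genes ranged from 0.810 to 139 RPKM, with a median of 4.92 RPKM for KRAB genes and 10.3 RPKM for genes without KRAB. All tested rows had a median of 3.22 RPKM, but the rule for the 160 asked for high counts. Just above the limit, ZNF668 (−0.29, adjusted p = 0.621) and ZNF235 (−0.34, adjusted p = 0.526) did not pass.

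Of the 9 genes with a SCAN match but no match to the KRAB pattern 0 were called by edgeR. At an unadjusted p under 0.05, 1 was higher and 1 lower, and the median of the 9 was −0.15. ZNF24, which has 4 fingers, had 115 and 125 CPM in control and 108 and 108 CPM in knockdown libraries (−0.15 ± 0.17, adjusted p = 0.586). ZNF263 had 124 and 113 CPM against 87.4 and 103 CPM (−0.31 ± 0.18, adjusted p = 0.240). By number of fingers, 4 of 37 genes with 14 or more fell (10.8%) and 0 rose. Of 68 genes with 8 to 13 fingers 13 fell (19.1%) and 1 rose (1.47%). Of 42 with 2 to 7 fingers 3 fell (7.14%) and 5 rose (11.9%). Of 13 genes with 0 or 1 fingers 1 fell and 1 rose (7.69% each). Over all tested rows 10.2% fell and 8.49% rose. The differences by finger number were not tested. KRAB genes had a median of 12 fingers and the others 8, so finger number and KRAB go together here.

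In GRCh38.p14 the promoters of 69 of the 141 genes with a window lie on chromosome 19. Of these 69 genes 14 fell (20.3%) and 1 rose (1.45%), with a median log2 fold change of −0.38. On other chromosomes 4 of 72 fell (5.56%) and 5 rose (6.94%), with a median of −0.16. Over all tested rows 10.2% fell and 8.49% rose. Genes without a window are left out, among them ZNF395, ZNF654 and ZNF852, which fell, and ZNF512B, which rose. All of these named genes lack a KRAB match. Among KRAB genes 10 of 44 (22.7%) on chromosome 19 and 1 of 20 (5.0%) on other chromosomes fell, with medians of −0.46 and −0.23. Among genes without KRAB 4 of 25 (16.0%) on chromosome 19 and 3 of 52 (5.77%) elsewhere fell, with medians of −0.14 and −0.15. These differences by position were not tested. Of 23 pairs of the 160 genes that are next to each other among protein-coding genes, 14 had the same sign of change and 1 had both genes called. That pair was ZNF470 and ZNF71, which both fell. As 108 of the 160 values lie below 0, genes that are not neighbours also often share a sign. The count of 14 was not tested against such pairs. ZNF404 fell by 2.83 on the log2 scale beside ZNF45 at −0.38, which did not pass. ZNF581 rose beside ZNF580, which it overlaps and which had 9.03 and 13.1 CPM in control and 15.4 and 23.8 CPM in knockdown libraries (adjusted p = 0.0723).

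KRAB transcripts are poorer in G and C than the others, with a median of 42.1% against 51.7%. Rows were cut into 4 equal groups by GC content. Over all rows the group with the lowest content, 31.1% to 43.2%, had a median log2 fold change of 0.03, with 7.58% that fell. In that group the 42 KRAB genes had a median of −0.41 and the 25 genes without KRAB −0.15. In the next group, up to 50.7%, 19 KRAB genes had a median of −0.48 and 19 others −0.38, against 0.03 for all rows. Only 7 KRAB genes lay in the GC-richer groups. In the third group 3 KRAB genes had a median of 0.38 and 13 others −0.26, and in the richest 4 KRAB genes had a median of 0.05. The 35 genes without KRAB in the richest group had a median of 0.09, against −0.06 for all rows.

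**Figure D4:**
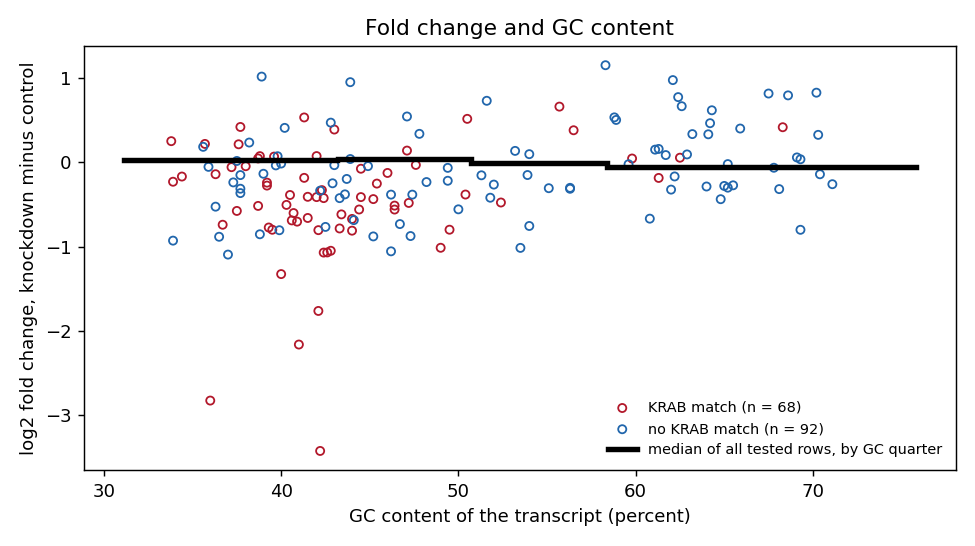
The log2 fold change of knockdown minus control (vertical axis) against the GC content of the transcript in percent (horizontal axis), red for the 68 KRAB genes and blue for the 92 others. Black lines give the median of all tested rows in 4 groups of GC content, between −0.06 and 0.03.

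The machinery that KRAB proteins recruit was measured alongside. A corepressor and heterochromatin list had 26 tested genes, of which 3 rose (11.5%) and 0 fell by edgeR. Over all tested rows 8.49% rose and 10.2% fell. Their median log2 fold change was 0.51. Of the 26, 22 were above 0, and at an unadjusted p under 0.05 11 were higher and 0 lower. Of all 12337 rows, 6174 were above 0, and 1830 were higher and 2063 lower at that p. TRIM28, the corepressor that KRAB binds, had 913 and 1217 CPM in control and 1275 and 1636 CPM in knockdown libraries (0.45 ± 0.18) and did not pass (adjusted p = 0.0985), although the groups did not overlap. With 1 library left out at a time, the log2 fold change of TRIM28 ran from 0.26 to 0.69. It passed in edgeR with the replicate number as a block (adjusted p = 0.00135), a setting that called more rows in both directions. The block was not the only alternative in which TRIM28 passed. SETDB1 had 2.21 and 4.70 CPM against 5.42 and 4.54 CPM (0.52 ± 0.43, adjusted p = 0.442), from 271 counts in all, and the groups overlapped.

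The 3 genes that rose act on chromatin in different ways. FAM208A, which codes for the HUSH complex subunit TASOR, had 45.9 and 45.3 CPM in control and 95.3 and 73.4 CPM in knockdown libraries (0.89 ± 0.20, adjusted p = 0.00705). EHMT1, a histone H3 methyltransferase, had 49.6 and 61.5 CPM against 97.8 and 101.9 CPM (0.85 ± 0.19, adjusted p = 0.00688), but missed the threshold without control replicate 1. CHD4, the remodelling ATPase of NuRD, had 15.4 and 14.04 CPM against 24.0 and 26.3 CPM (0.77 ± 0.24, adjusted p = 0.0378). CHD4 missed the threshold without either control library and without knockdown replicate 2. The knockdown libraries lay above the control libraries in all 3.

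**Figure D5:**
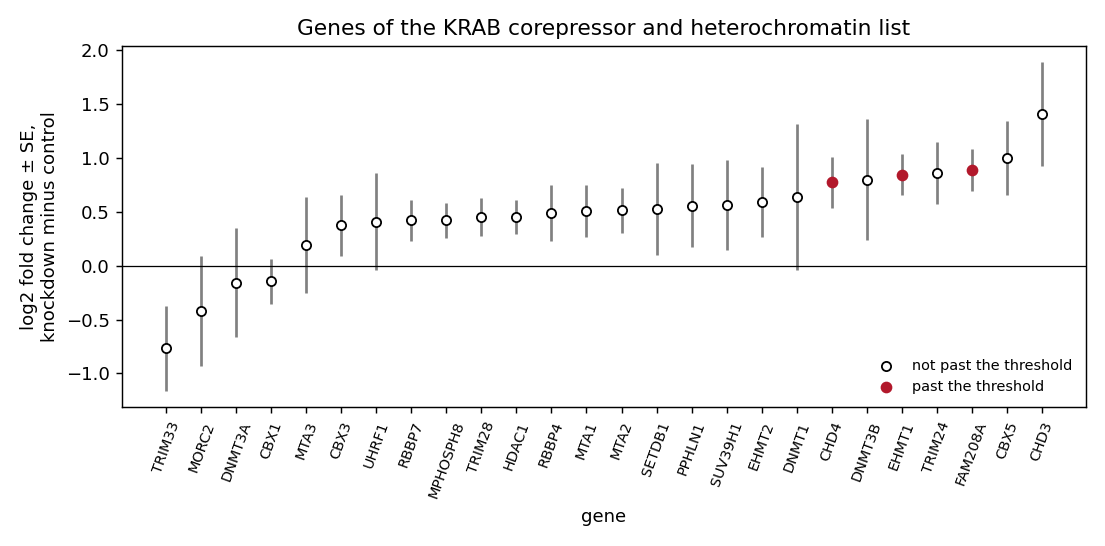
The log2 fold change of knockdown minus control with its standard error (vertical axis) for the 26 tested genes of the corepressor and heterochromatin list (horizontal axis), filled red for the 3 past the threshold. Values lie above 0 for 22 genes, from TRIM33 at −0.77 to CHD3 at 1.40.

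At a q-value under 0.05, 33 of the 160 genes are lower and 9 higher in the authors' deposited table, and all 28 genes called here are among them with the same sign. Of the 160 genes 14 have further rows, 13 of which could be tested, and 0 of these were called by edgeR. Of the 13 rows 6 had the sign of the row described here, so the values above hold for the row with the most counts.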

How the data were processed

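RNA of 4 libraries was sequenced, 2 control and 2 USP22 knockdown, and groups were taken from the sample titles. The authors deposited raw counts per RefSeq mRNA accession in 1 table, per the file headers. Beside them stand the authors' own comparison values, a log2 fold change with a p-value and a q-value. HISAT2 2.1.0, HTSeq, bcl2fastq and the build hg19 appear in the submitters' processing notes, while settings for counting were not given in the sources used here. Per the labels' protocols the kit was NEBNext Ultra RNA, which does not mark strand.

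Rows were filtered with filterByExpr (minimum count 10), which kept 12337 of 14540. Counts were scaled by TMM (factors 0.979 to 1.01) and tested with edgeR 4.0.16 (glmQLFit, glmQLFTest) without covariates, with Benjamini-Hochberg adjustment over all tested rows and a threshold of 0.05. The standard error is the log2 fold change divided by the square root of F. The common biological coefficient of variation was 22.1%. The fit was tested on simulated data.

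Domains and fingers were matched by spacing patterns in coding sequences of GENCODE 29 (GRCh38), 155 of 160 by accession and the rest by symbol. Promoters and gene order came from RefSeq GRCh38.p14, with the first listed start of a gene, and are not of the authors' build. RPKM is CPM per kilobase of that transcript. The 160 genes, the gene lists and the tests were chosen with earlier results of these data known. Genes named are USP22, TRIM28 and SETDB1, up to 10 largest changes per direction among genes past the threshold, the 5 with the most counts, up to 2 per list or class and direction, and genes at the limit; all 28 called genes were added, and ZNF792, ZNF45, ZNF580, PECAM1, TRIM33 and CHD3 were named after their values were seen. The stricter and looser KRAB patterns were revised once after calls by class were seen. The motifs were picked after fold changes were seen, and the printed promoters are those of the 3 largest called changes per direction, a rule set after matches were seen. Alternatives were other size factors, filters, tests and thresholds, a replicate block, leaving out each library, rows summed per gene and other member and KRAB rules.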

Additional observations from a re-analysis of the deposited data

How the results depend on the processing

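The median of the 160 genes stayed below 0 in every alternative, and all 28 calls remained with DESeq2 size factors, DESeq2, limma-voom, a 5 CPM filter, rows summed per gene and the replicate block, and 27 with no filter. Without 1 library 17 to 21 of the 28 remained, and at an adjusted p under 0.01 13 remained. Against a fold of 1.5, 0 genes were called higher and 6 lower (KRAB 5 lower, without KRAB 0 higher and 1 lower, all rows 254 and 583). At an adjusted p under 0.01, 8 were lower (KRAB 5, without KRAB 3, all rows 433 higher and 686 lower). Under a replicate block, 12 were higher and 34 lower (KRAB 2 and 18, without KRAB 10 and 16, all rows 1672 and 1859). The labels do not say what a number shares, and with 2 pairs the deviations of same-numbered libraries correlated at 0.136 over rows. Leaving out a library gave 5 to 14 higher and 12 to 23 lower (KRAB 0 to 2 and 7 to 15, without KRAB 5 to 12 and 4 to 10, all rows 685 to 1340 and 1020 to 1297), with a median of −0.23 to −0.14. Such a fit leaves 1 library in an arm, assumed to vary like the other group. Every ZNF-named gene tested (312) gave 11 higher. The stricter KRAB pattern gave 7 lower of 39. The median was −0.19 with rows summed per gene and −0.14 with at least 1000 counts. Genes that overlap none, chosen after seeing the data, gave 0 higher, 12 lower and a median of −0.28. The cause of these shifts was not tested. The standard error was 0.34 for ZNF668, near the minimum count, 0.16 for ZNF768, the most counted gene, and 0.29 for ZNF292, whose libraries stand apart.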
